A study of Homo sapiens with 8 samples.

Results

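The 9 genes described here are MAPK8, which encodes the stress-activated kinase JNK1, and 8 further members of the mitogen-activated protein (MAP) kinase cascades: MAPK9, MAPK3, MAPK14, MAPK7, MAP2K1, MAP2K2, MAP2K4 and MAP2K7. They are 9 of the 22678 gene symbols to which the RefSeq transcript entries of the expression files could be assigned, and they take up 24 of those entries. The set was chosen by MAPK8, which was selected on measured values: its FPKM, when summed over the entries whose accession is in the current RefSeq table, was near 0 after knockdown in A498 cells and not in 786-O cells. That choice used the MAPK8 values of these libraries in both cell lines, so the MAPK8 values below, between treatments and between lines, are a description and carry no test. The other 8 genes were taken for their place in the cascades.

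RNA sequencing was done on A498 and 786-O, established lines of clear cell renal cell carcinoma (ccRCC), the commonest form of kidney cancer. In each line the long intergenic non-coding RNA SLINKY was knocked down with siRNA #1 or with siRNA #2, and cells given a non-target control siRNA (NTC) were sequenced as 2 libraries, so each of the 4 groups held 2 libraries and the series held 8. Per the study's methods the siRNAs against SLINKY were of custom design and the NTC siRNA was a pool of non-targeting siRNAs, so knockdown and NTC also differed in this respect, while the labels call all of the siRNAs pools. All were delivered by lipofection at 50 nM, with a transfection of 16 h, and the methods give a later time for the isolation of RNA. The 2 knockdown libraries of a line therefore differed in the siRNA used, and their spread includes the difference between the siRNAs. Each line stands for 1 tumor, and the lines were kept in different media (DMEM for A498, RPMI-1640 for 786-O), so line and medium cannot be told apart in any comparison of A498 with 786-O.

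MAP kinase cascades carry signals from the cell surface through kinases that phosphorylate each other in turn. A MAP kinase kinase kinase activates a MAP kinase kinase (the MAP2K genes), which activates a MAP kinase, which phosphorylates transcription factors and further kinases. MAP2K1 and MAP2K2 (MEK1 and MEK2) activate ERK kinases such as MAPK3 (ERK1), MAP2K4 and MAP2K7 activate the JNK kinases MAPK8, MAPK9 and MAPK10, MAP2K3 and MAP2K6 activate the p38 kinases such as MAPK14, and MAP2K5 activates MAPK7 (ERK5). The cascades are controlled mainly by phosphorylation, which RNA levels do not measure.

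Values are FPKM, fragments scaled to transcript length and to the mapped reads of the library, which allows levels of different genes to be compared per length. Between 25090000 and 64590000 mapped reads stood behind a library, as estimated from the values and intervals of entries with no splicing. SLINKY itself stood at 14.6 and 16.1 FPKM in the A498 NTC libraries against 1.64 and 3.01 with siRNA #1 and siRNA #2, and at 1.45 and 1.39 in the 786-O NTC libraries against 0.0569 and 0.594. Of the kidney tumor markers found in the files, PAX8 (39.2 to 48.1 FPKM), KRT8, KRT18, VIM, EPAS1 and PAX2 were above 1 FPKM in all 8 libraries, and CA9 was at 0 to 0.559. The leukocyte genes PTPRC and CD3E were at 0 in all libraries, and the endothelial genes PECAM1, CDH5 and KDR stayed at or below 0.0385. The macrophage marker CD68 ranged from 138 to 151 FPKM in A498 and from 1.70 to 5.20 in 786-O, with no overlap of the lines, and its part in the differences between lines was not tested.

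The files hold 4 RefSeq entries for MAPK8, all over the same span on chromosome 10 (chr10:49609687-49643183, hg19), and these are alternative splice forms of 1 gene. In the GENCODE annotation of the same build, 4 coding forms of MAPK8 with 11 coding exons share 9 of them and differ in 2 places. The first is a pair of mutually exclusive exons of 72 bases within the kinase domain, of which 28 bases differ. The second is the splice acceptor of the last coding exon, which lies 5 bases further upstream in one choice than in the other, so that the reading frame ends after 384 codons with the upstream acceptor and after 427 with the downstream one. The sequences are shown because all differences between the MAPK8 entries come down to them. They are on the plus strand of GRCh37, 5′ to 3′. In the exons, at chr10:49632131-49632202 and chr10:49632557-49632628, the capitals mark the bases that differ between the pair. In the junctions, which join the exon ending at base 49639313 to the last coding exon starting at 49642922 or 49642927, the capitals mark the 5 bases that only the upstream acceptor includes.
Alternative exon, upstream: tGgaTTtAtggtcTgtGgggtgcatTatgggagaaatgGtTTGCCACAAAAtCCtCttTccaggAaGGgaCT
Alternative exon, downstream: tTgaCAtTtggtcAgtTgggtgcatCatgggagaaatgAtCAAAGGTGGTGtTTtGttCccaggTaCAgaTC
Junction with the upstream acceptor: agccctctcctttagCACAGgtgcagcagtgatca
Junction with the downstream acceptor: agccctctcctttaggtgcagcagtgatca

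The lengths implied by the interval widths in the files put NM_139046 and NM_002750 with the longer forms (median 1415.8 bases; 1417 in the annotation, upstream acceptor) and NM_139047 and NM_139049 with the shorter ones (1410.8 bases; 1412 in the annotation, downstream acceptor). Which entry carries which of the mutually exclusive exons was not assigned. Within the span of the entries, a read of 36 bases can start at 1382 places in a longer form and at 1377 in a shorter one. Of these, 38 (2.75%) and 33 (2.4%) tell 2 forms apart that differ only in the acceptor, and 106 (7.67% and 7.7%) tell 2 forms apart that differ only in the mutually exclusive exon.

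In the A498 NTC libraries nearly all of the MAPK8 signal was on NM_139046, and in the A498 knockdown libraries nearly all of it was on NM_139047. NM_139046 stood at 2.59 and 3.16 FPKM in the A498 NTC libraries, at 0.00138 with siRNA #1 and at 0.00194 with siRNA #2. NM_139047 stood at 0.00646 and 0.00245 in the same NTC libraries, at 2.78 with siRNA #1 and at 2.73 with siRNA #2. The groups did not overlap for either entry, and the values that were lost from one entry were found on the other. In the file of siRNA #1, the 95% interval of NM_139047 was 2.27 to 3.29 FPKM and that of NM_139046 was 0 to 0.0480. NM_002750 reached 0.173 FPKM in the first A498 NTC library, and apart from that neither it nor NM_139049 exceeded the worth of 1 read in A498, which was 0.0155 to 0.0328 FPKM depending on the library.

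The 786-O libraries did not follow the same division. NM_139046 stood at 6.00 and 2.91 FPKM in the 786-O NTC libraries and at 5.81 and 7.31 with siRNA #1 and siRNA #2. NM_139047 stood at 0.00252 in the first NTC library and at 2.91 in the second, against 7.68e-05 and 0.000279 with the siRNAs. In the second NTC library the signal was thus divided evenly, with 47.7% of the sum on each of the 2 entries and most of the rest on NM_002750 (0.140 FPKM) and NM_139049 (0.138 FPKM). NM_002750 stood at 0.500 FPKM in the first NTC library and at 1.06 with siRNA #1. The NTC libraries of 786-O therefore differed in how the signal was divided between the entries, although NM_139046 was the highest entry in all 4 libraries of this line.

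**Figure D1:**
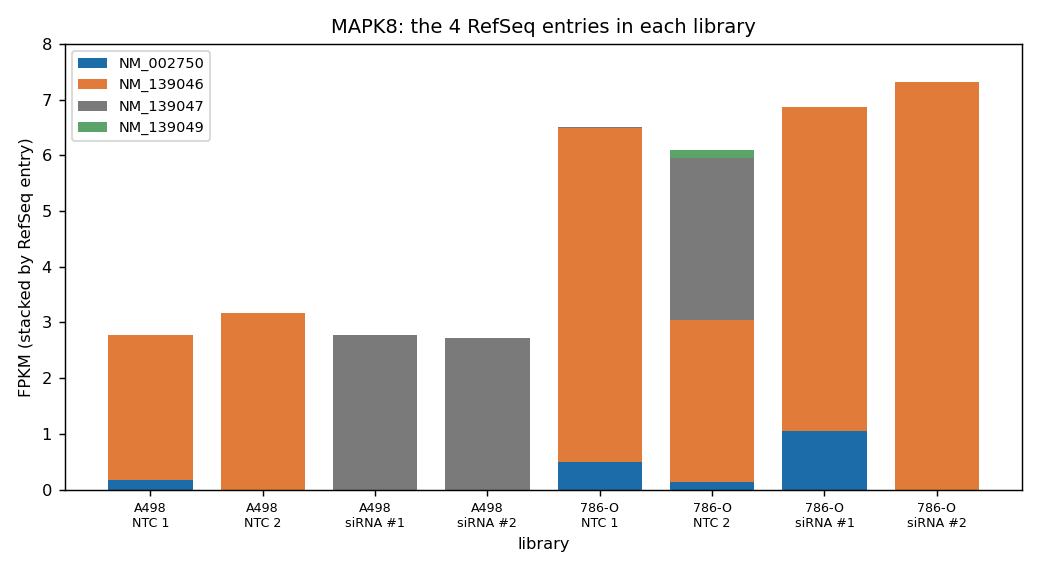
FPKM of the 4 RefSeq entries of MAPK8 in each of the 8 libraries, stacked, so that the full height of a bar is the MAPK8 sum. The height stays between 2.73 and 3.17 FPKM in A498 and between 6.09 and 7.31 FPKM in 786-O, while the entry that fills the bar changes from NM_139046 to NM_139047 in both A498 knockdown libraries and is split in the second 786-O NTC library.

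Summed over its 4 entries, MAPK8 did not vanish in any library. The sum was 2.77 and 3.17 FPKM in the A498 NTC libraries, 2.78 with siRNA #1 and 2.73 with siRNA #2. In 786-O it was 6.50 and 6.09 FPKM in the NTC libraries, 6.86 with siRNA #1 and 7.31 with siRNA #2. The A498 groups overlapped, and both 786-O knockdown libraries were above both NTC libraries, as for 18.9% of all tested genes. The fitted difference between knockdown and NTC was -0.10 on the scale of log2(FPKM + 0.1) in A498 and 0.17 in 786-O. When NM_139047 and NM_002750, whose accessions are absent from the current RefSeq table, were left out, the A498 difference became -4.87. The near loss that led to the choice of MAPK8 was therefore present only in the sum over NM_139046 and NM_139049.

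None of the 24 member entries had an estimate marked as failed or as short of data in any library, although 192 to 324 entries per library were marked FAIL. No other entry of the files overlapped the span of MAPK8. The MAPK8 sum corresponded to 83 to 179 reads per library in A498 and to 287 to 478 in 786-O. Spread evenly along the transcript, these would put 2.1 to 4.6 reads in A498 and 7.4 to 12 in 786-O on the positions that tell the acceptors apart, and 6.4 to 13.7 and 22 to 36.8 reads on those that tell the mutually exclusive exons apart. These read numbers are counting estimates from FPKM and depth. Reads were not analysed here, so whether the A498 cells used a different acceptor after knockdown was not tested.

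Changes of the leading entry of this kind also separated libraries of the same treatment across the transcriptome. Of 3821 tested symbols with at least 2 entries over an identical span, the entry with the highest FPKM differed between the NTC libraries for 410 (10.7%) in A498 and for 413 (10.8%) in 786-O. It differed between siRNA #1 and siRNA #2 for 485 (12.7%) and 497 (13%). These counts take no account of the intervals of the entries. The pattern seen for MAPK8 in A498, in which 1 entry led in both NTC libraries and another in both knockdown libraries, was found for 68 of these symbols (1.78%) in A498 and for 52 (1.36%) in 786-O. Of 43150 RefSeq entries, 53 were at 1 FPKM or more in both A498 NTC libraries and under 0.01 in both knockdown libraries, NM_139046 among them, and 25 had the reverse pattern, NM_139047 among them. For 32 of the 53, the sum over all entries of the same symbol was still at 1 FPKM or more in both knockdown libraries. In 786-O the numbers were 29 and 22 entries, and 16 of the 29 kept their symbol's sum. Restricting sums to accessions in the current table raised the number of symbols lost in A498 from 20 to 22, and the 2 that were added were MAPK8 and AMN1.

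Of the other members with several entries, MAPK9, MAPK14 and MAPK7 had another leading entry in single libraries while their sums held. For MAPK9, NM_002752 led in 7 libraries, but in 786-O with siRNA #1 it stood at 0.696 FPKM while NM_139068, at 0.0207 to 0.0335 elsewhere, was at 12.8. For MAPK14, NM_139014 led in 6 libraries, NM_001315 in A498 with siRNA #2 (3.68 FPKM against 1.91) and NM_139012 in 786-O with siRNA #2 (4.79 against 4.67). For MAPK7, NM_139034 led except in A498 with siRNA #1, where NM_139032 stood at 4.05 FPKM against 3.80. MAPK3 kept NM_002746 in all 8 libraries, with at least 97.7% of its sum, and the MAP2K genes have 1 entry each. All values below are sums over entries.

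**Figure D2:**
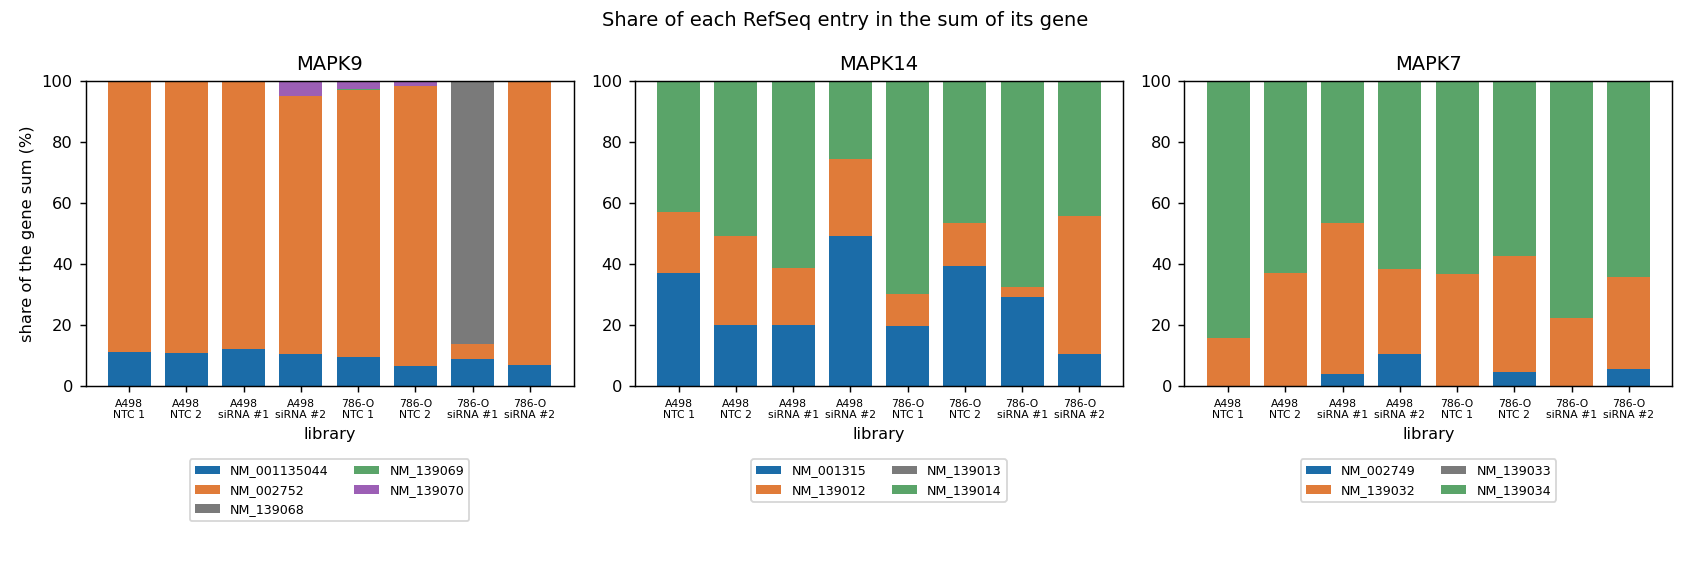
Share of each RefSeq entry in the summed FPKM of its gene (percent, stacked) in the 8 libraries, for MAPK9, MAPK14 and MAPK7. NM_002752 holds 84.4% or more of MAPK9 except in 786-O with siRNA #1, where it holds 4.68% and NM_139068 holds 86.4%, and the shares of the MAPK14 and MAPK7 entries vary between libraries of the same group.

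The cell lines differed in most of these genes. Over all 8 libraries, 6 of the 8 members other than MAPK8 had A498 and 786-O ranges that did not overlap (3 with A498 above, 3 with A498 below), as did MAPK8 (A498 below). Such ranges were found for 75.6% of all 11386 tested genes (36.7% above, 39% below). In the NTC libraries, limma called 6 of these 8 at an adjusted p under 0.05 (3 higher in A498, 3 lower), and it called 72.6% of all tested genes, so the share of the members is close to that of the transcriptome. Since libraries are bulk, fewer cells with a transcript and less of it per cell cannot be told apart.

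Levels of the JNK kinases, which respond to stress and cytokines, differed between the lines. MAPK8 averaged 2.97 ± 0.28 FPKM (SD, n = 2) in the A498 NTC libraries and 6.30 ± 0.29 in those of 786-O, a 2.12-fold higher level in 786-O, and no A498 library reached any 786-O library. The fitted log2 difference of A498 from 786-O was -1.06 for the sum over entries, -0.53 for the leading entry alone and -0.56 for the accessions in the current table. MAPK9, the gene of JNK2, stood at 9.82 and 10.6 FPKM in the A498 NTC libraries and 10.1 and 11.4 with the siRNAs, and at 14.3 and 15.4 against 14.9 and 14.8 in 786-O. The lines did not overlap, while within each line knockdown and NTC did. MAPK9 was lower in A498 by a log2 difference of -0.54 (SE 0.0747, limma adjusted p = 0.000668). MAPK8 made up 19.4% to 23.1% of the sum of MAPK8 and MAPK9 in A498 and 28.4% to 33.0% in 786-O, with no overlap between the lines. MAPK10, the JNK3 gene known mainly from neurons, did not exceed 0.349 FPKM in any library.

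Of the kinases that activate JNK, MAP2K4 differed between the lines in the opposite direction to MAPK8. MAP2K4, which also phosphorylates p38 kinases, stood at 9.92 and 10.9 FPKM in the A498 NTC libraries and 9.70 and 10.0 with the siRNAs, and at 7.83 and 7.56 against 6.99 and 7.81 in 786-O. All A498 libraries were above all 786-O libraries, by a log2 difference of 0.43 in the NTC libraries (SE 0.0743, limma adjusted p = 0.00192). MAP2K7, which is specific to JNK, stood at 9.28 and 8.45 FPKM in the A498 NTC libraries and 7.89 and 8.01 with the siRNAs, and at 8.34 and 9.12 against 8.47 and 8.28 in 786-O. The lines overlapped for MAP2K7, and the difference of 0.022 had a 95% interval of -0.14 to 0.19 (limma adjusted p = 0.792). The ratio of MAP2K4 to MAP2K7 was 1.07 to 1.29 in A498 and 0.825 to 0.944 in 786-O.

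In the ERK cascade, which relays growth factor signals, the MAPK3 level differed most. MAPK3 stood at 35.3 and 31.7 FPKM in the A498 NTC libraries and 32.4 and 30.2 with the siRNAs, and at 11.6 and 13.2 against 13.3 and 11.5 in 786-O. The A498 NTC mean was 2.71 times that of 786-O, with no overlap of the lines (log2 difference 1.43, SE 0.102, limma adjusted p = 2.92e-05).

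MAP2K1, the MEK1 gene, stood at 12.2 and 12.4 FPKM in the A498 NTC libraries and at 11.1 and 13.8 with siRNA #1 and siRNA #2, and at 20.04 and 20.2 against 17.9 and 23.1 in 786-O. In both lines siRNA #1 was below and siRNA #2 above both NTC libraries, a split of single libraries that was not tested. A498 was below 786-O throughout. The log2 difference between the lines was -0.70 (SE 0.142, limma adjusted p = 0.00399). MAP2K2, the MEK2 gene, had the highest level of the 9 genes in both lines, with 70.9 and 63.5 FPKM in the A498 NTC libraries and 63.1 and 56.4 with the siRNAs, and 65.7 and 74.2 against 66.1 and 68.3 in 786-O. The lines overlapped, and the difference of -0.058 had a 95% interval of -0.28 to 0.16 (limma adjusted p = 0.591). MAP2K2 exceeded MAP2K1 by 4.08 to 5.79 times in A498 and by 2.95 to 3.69 times in 786-O.

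MAPK14 encodes p38α, a stress and cytokine kinase, and MAPK7 encodes ERK5, a large MAP kinase with a transcription-activating tail. MAPK14 stood at 6.71 and 7.05 FPKM in the A498 NTC libraries and 7.43 and 7.47 with the siRNAs, and at 9.27 and 9.55 against 9.65 and 10.6 in 786-O. A498 was below 786-O throughout (log2 difference -0.45, SE 0.0611, limma adjusted p = 0.00063). MAPK7 stood at 9.03 and 8.59 FPKM in the A498 NTC libraries and 8.17 and 8.70 with the siRNAs, and at 3.88 and 3.95 against 3.94 and 4.33 in 786-O. It was 2.25 times as high in the A498 NTC libraries, with no overlap of the lines (log2 difference 1.15, SE 0.0667, limma adjusted p = 1.18e-05).

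**Figure D3:**
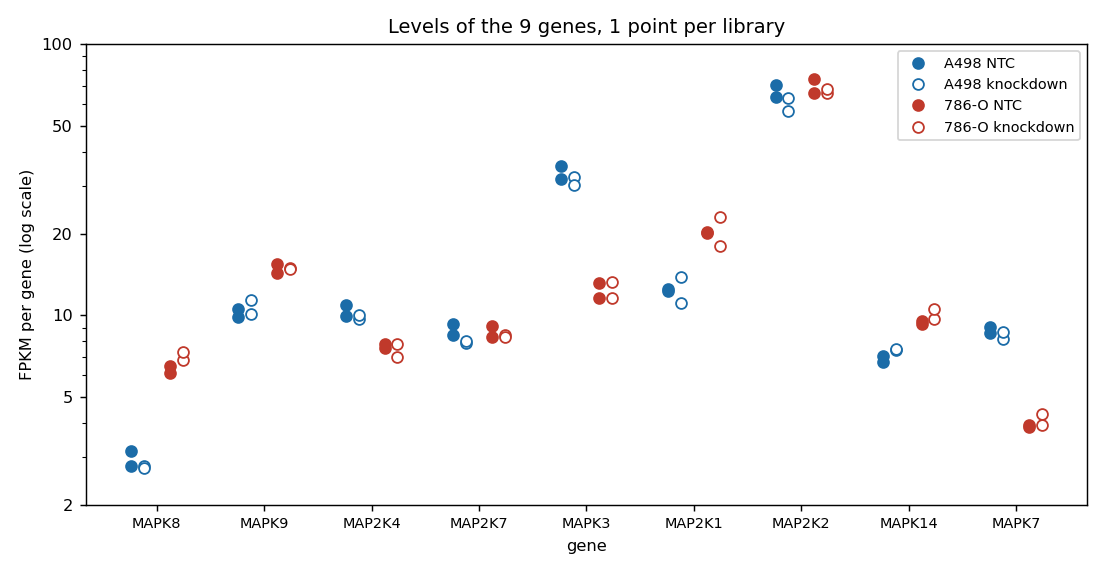
FPKM (log axis) of the 9 genes summed over their entries, 1 point per library, for NTC and knockdown in A498 and 786-O. The lines separate for 7 genes and overlap for MAP2K7 and MAP2K2, and the points of a line lie close together whether NTC or knockdown.

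Ordered by the mean over the 4 libraries of a line, A498 had MAP2K2 (63.5 FPKM), MAPK3 (32.4), MAP2K1 (12.4), MAPK9 (10.5), MAP2K4 (10.1), MAPK7 (8.62), MAP2K7 (8.41), MAPK14 (7.16) and MAPK8 (2.86). The ranges of MAP2K1, MAPK9 and MAP2K4 overlapped with their neighbours in this order, as did those of MAPK7 and MAP2K7. In 786-O the order was MAP2K2 (68.6), MAP2K1 (20.3), MAPK9 (14.9), MAPK3 (12.4), MAPK14 (9.76), MAP2K7 (8.55), MAP2K4 (7.55), MAPK8 (6.69) and MAPK7 (4.03), and only MAP2K4 and MAPK8 overlapped as neighbours. MAPK8 was thus lowest in A498 and above MAPK7 in 786-O.

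SLINKY knockdown was compared with NTC to ask which of these genes change with loss of the lincRNA. None of the 8 members other than MAPK8 was called by limma in A498, in 786-O, or over both lines with cell line as a covariate. Across the transcriptome few genes were called: 0.158% in A498, 0.141% in 786-O and 0.00878% (1 gene) over both lines. At an unadjusted p under 0.05, the number of the 8 members was 0 in A498, 0 in 786-O and 1 over both lines, and the number of all 11386 genes was 492, 479 and 1309. The median log2 difference of the 8 was -0.069 in A498 and 0.00046 in 786-O, and that of all genes was 0.012 and 0.0066.

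The 1 member with an unadjusted p under the threshold was MAPK14, whose knockdown libraries lay above the NTC libraries in both lines. Its log2 difference over both lines was 0.11 (SE 0.0391, 95% interval 0.016 to 0.20, limma adjusted p = 0.411). The A498 difference was 0.11 (95% interval -0.067 to 0.30) and that in 786-O 0.10 (-0.10 to 0.30). MAP2K7 and MAP2K2 lay below NTC without overlap in A498, by -0.15 (95% interval -0.37 to 0.059) and -0.17 (-0.43 to 0.090) on the log2 scale, and overlapped in 786-O. Values without overlap are common with 2 against 2 libraries: 20.4% of all genes lay above and 16.3% below in A498, and 18.9% and 13.7% in 786-O.

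For the remaining members the knockdown differences over both lines were between -0.067 for MAP2K4 (limma adjusted p = 0.593) and 0.037 for MAPK9 (limma adjusted p = 0.777). MAPK3 (-0.049), MAP2K1 (0.011) and MAPK7 (0.0068) lay between them. The widest 95% interval was that of MAP2K1, from -0.21 to 0.23, and MAPK3 had one from -0.21 to 0.11. Differences inside these intervals are not excluded by the 4 knockdown and 4 NTC libraries of this fit. The intervals are no limits of detection, since a difference whose interval excludes 0 can miss the adjusted threshold, as that of MAPK14 did. The difference between the knockdown effects of the lines was called for 0.132% of all genes and for none of the 8 members by limma, none of which had an unadjusted p under 0.05.

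**Figure D4:**
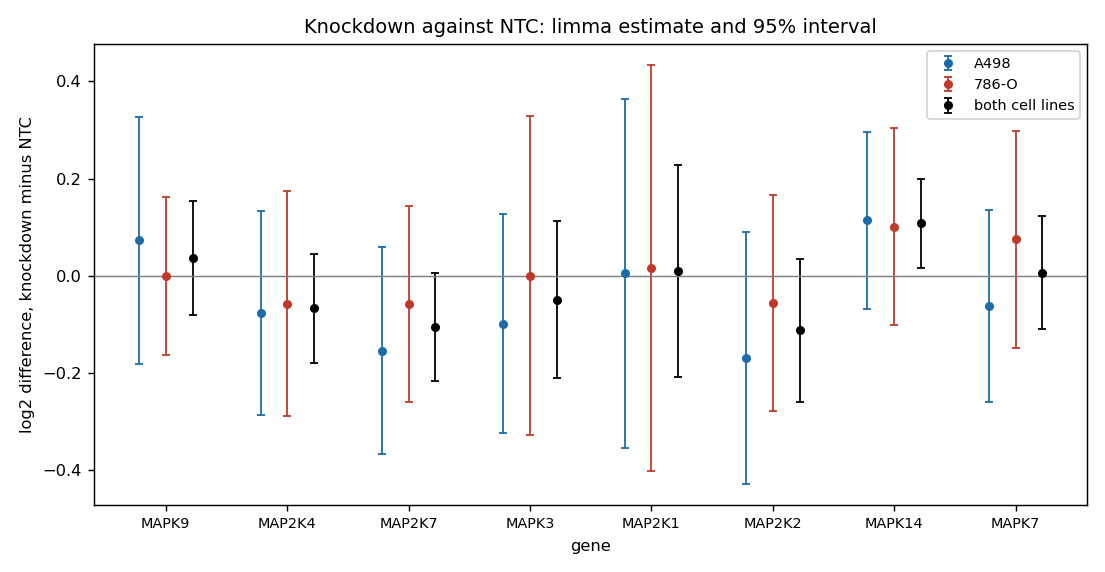
Log2 difference of knockdown from NTC (log2 of FPKM + 0.1) with its limma 95% interval for the 8 members other than MAPK8, in A498, in 786-O and over both lines. Every interval includes 0 except that of MAPK14 over both lines, which runs from 0.016 to 0.20.

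The members were set beside 7 lists of the wider pathway, of which 67 genes had a mean of at least 1 FPKM. None of the 67 was called by limma for knockdown in A498, in 786-O or over both lines. None was called for the difference between the knockdown effects of the lines. In the order named, 1, 3, 12 and 3 had an unadjusted limma p under 0.05, next to 492, 479, 1309 and 217 of all 11386 genes. The 67 include MAPK8, which was chosen on these values, so its part in these counts is no test. In the comparison of the NTC libraries, 24 of the 67 were higher and 26 lower in A498 (MAPK8 counted among the latter, although it was chosen on these libraries), next to 35.2% and 37.5% of all genes, and their median log2 difference was 0.016 against -0.026 over all genes. Of 10 MAP kinases 4 were higher and 4 lower, of 7 MAP kinase kinases 2 and 1, of 17 MAP kinase kinase kinases 6 and 9, and of 7 scaffolds and adaptors 3 and 2. Of 9 dual specificity phosphatases, which switch MAP kinases off, 4 were higher and 3 lower, of 9 substrate kinases 2 and 5, and of 8 substrate transcription factors 3 and 2.

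Of the 8 listed genes with the smallest p between lines, MAPK11, MAP2K6 and TAB1 belong to the p38 branch. MAPK11 (p38β) stood at 32.2 to 36.2 FPKM in A498 and 6.27 to 6.89 in 786-O (log2 difference 2.37, limma adjusted p = 9.5e-07). MAP2K6, a kinase that activates p38, stood at 6.19 to 7.61 FPKM in A498 and 0.383 to 0.566 in 786-O (3.40, limma adjusted p = 2.56e-06). TAB1, which binds p38α and the kinase TAK1, was lower in A498 (5.81 to 6.45 FPKM against 9.75 to 10.8, log2 difference -0.74, limma adjusted p = 2.41e-05). MAPK14, the p38 member of the set, was lower in A498 while MAPK11 was higher.

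The others of these 8 genes were MAPK7, the kinase kinase kinases MAP3K4 and MAP3K13, the JNK scaffold MAPK8IP1 and the phosphatase DUSP5. MAP3K4 stood at 1.84 to 2.04 FPKM in A498 and 4.46 to 4.79 in 786-O (log2 difference -1.17, limma adjusted p = 1.33e-05). MAP3K13 stood at 4.20 to 5.06 FPKM against 10.3 to 12.3 (-1.20, limma adjusted p = 1.72e-05). Further kinase kinase kinases upstream of JNK differed in the other direction: MAP3K12, named after its values were seen, stood at 2.24 to 2.68 FPKM in A498 and 0.501 to 0.643 in 786-O (1.90, limma adjusted p = 3.76e-05), and MAP3K10, named likewise, was higher in A498 by 0.72 (limma adjusted p = 0.000436). MAPK8IP1, which holds JNK together with its activators, stood at 2.46 to 2.74 FPKM against 0.598 to 0.728 (1.85, limma adjusted p = 2.09e-05). DUSP5, a nuclear phosphatase of ERK, stood at 59.6 to 65.3 FPKM in A498 and 13.3 to 18.9 in 786-O (2.15, limma adjusted p = 1.62e-06).

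**Figure D5:**
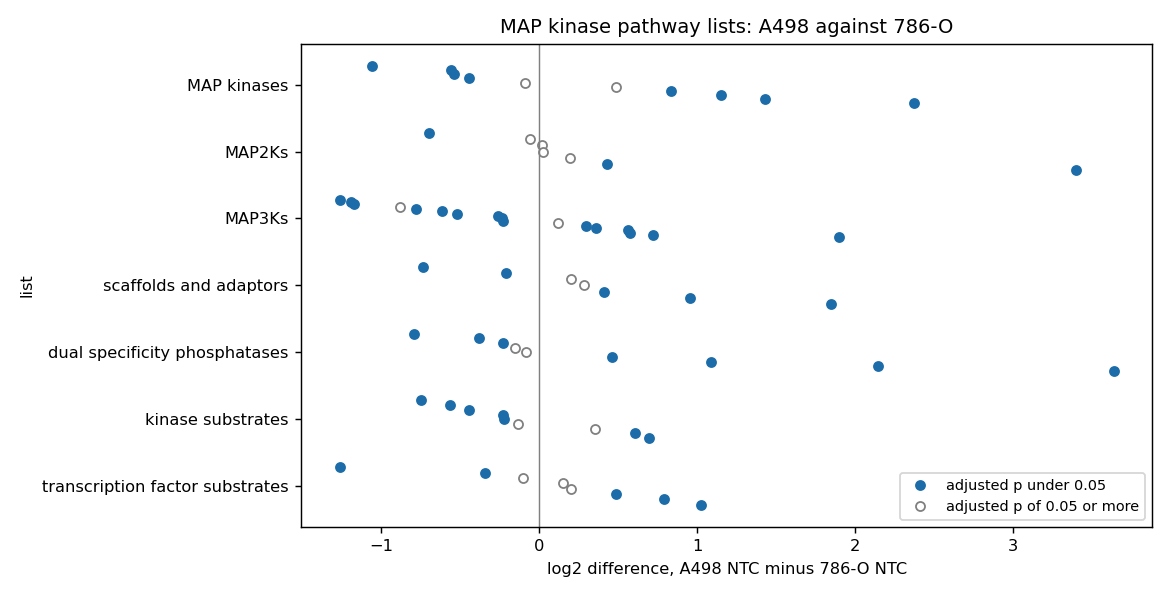
Log2 difference of A498 from 786-O in the NTC libraries for the 67 tested genes of the 7 lists, 1 point per gene, with genes at an adjusted p under 0.05 (limma) marked. Each list has points on both sides of 0, and DUSP2 (3.64), MAP2K6 (3.40) and MAPK11 (2.37) lie farthest to the side of A498. MAPK8 is among the marked points, although it was chosen on these libraries and its mark is no test.

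The largest knockdown differences over both lines among listed genes did not pass the test. The largest increases were DUSP5 (log2 difference 0.22, limma adjusted p = 0.404), LAMTOR3, a scaffold of MEK1 (0.21, 0.415), and ELK1, a transcription factor that ERK phosphorylates (0.20, 0.430). The largest decreases were MAP3K14 (-0.25, limma adjusted p = 0.909), DUSP8, a phosphatase of JNK and p38 (-0.18, 0.524), and MAP2K5, the activator of MAPK7 (-0.13, 0.442). For MAP3K14 the lines went in opposite directions, with a log2 difference of 1.30 in A498 and -1.79 in 786-O. Its value over both lines is therefore no decrease that the lines share, and it covers only the RefSeq entry of the gene. The LAMTOR3 entries were marked FAIL in the first A498 NTC library and the MAP3K14 entry in both 786-O NTC libraries. DUSP5 was above both NTC libraries with siRNA #1 in each line (65.3 against 61.4 and 59.6 FPKM in A498, 18.9 against 13.9 and 13.3 in 786-O). With siRNA #2 it stood at 61.2 FPKM in A498, inside the NTC range, and at 16.4 in 786-O, above both NTC libraries.

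The genes whose log2(FPKM + 0.1) was most like that of the MAPK8 sum over the 8 libraries were GOLPH3 (Pearson r = 0.999), POLD3 (0.998), RPS20 (0.998), RPL35A (0.998) and CCDC138 (0.997). The 8 points fall into 2 clusters by cell line, and these values reflect mainly the difference between the lines. RPS20 and RPL35A encode ribosomal proteins and have processed pseudogenes, so their FPKM are uncertain. GOLPH3, for example, ranged from 20.6 to 21.99 FPKM in A498 and from 34.5 to 37.99 in 786-O.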

How the data were processed

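Per the study's methods, the libraries of A498 and 786-O cells, 8 in this series, were prepared from total RNA with an Illumina TruSeq RNA kit. Per the labels and the submitters' processing notes, the authors aligned reads with TopHat2 2.0.0 to hg19 and computed FPKM with Cufflinks 2.0.2, and the deposited values are FPKM with their 95% intervals and a status per transcript entry. Each file holds 75378 entries, of which 43150 are RefSeq entries. Of these, 41698 were given a symbol by accession in the RefSeq table (GRCh38.p14, used for names only) and 357 by an identical span, 1095 had none, and FPKM were summed per symbol. Cufflinks divides reads among overlapping forms by maximum likelihood, so an entry's value depends on few reads where forms are nearly alike.

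The test was limma 3.58.1 (R 4.3.3, trend) on log2(FPKM + 0.1) for 11386 symbols with a mean of at least 1 FPKM, with Benjamini-Hochberg adjustment and a threshold of 0.05. This scale understates changes of low genes. Knockdown was tested within each line and over both lines with the line as covariate, and the difference between lines and its interaction with knockdown were tested in a fit of 4 group means. The test was run on simulated data with changes far larger than the knockdown differences of the members, which cannot show whether differences as small as these would be called. Depth was estimated from the values and interval widths of 29 to 41 unspliced entries per library, since the files hold no counts. Nothing in the labels says that replicates came from separate cultures, so p-values measure only the spread between these libraries. The main fits did not pair libraries by replicate number. Read numbers cover counting error only. The interval of an entry describes a single library and holds no variation between libraries.

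The members, lists and rules were chosen with earlier results of these data known. The use of identical spans was added after seeing the files. Named genes were the 9 members, of the listed genes the 8 with the smallest p per fit among those called and the 3 largest changes each way over both lines, and the 5 most like MAPK8. Sequences were read from GRCh37 with GENCODE v44 lifted to it. Alternatives were the pseudocount, the filter, median-ratio scaling, the leading entry, the replicate block, accession matches alone, symbols of at least 200 bp and leaving out each library. Values of some genes are not reported here.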

Additional observations from a re-analysis of the deposited data

How the results depend on the processing

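With 16 tested results on single members and 288 alternatives, 274 kept their direction and side of the threshold and 14 reversed. The MAPK8 difference between lines, which was not tested, was -1.06, and moved to -0.53 for the leading entry, -0.56 with accession matches alone, -0.88 with a pseudocount of 1 and -1.15 to -0.97 without 1 library. The reversals were of differences near 0. For knockdown over both lines they were MAPK9 (-0.0039 to 0.064 without 1 library), MAP2K1 with median-ratio scaling (-0.0063) and without 1 library (-0.064 to 0.083, with -0.051 for another), and MAPK7 with the leading entry (-0.079), median-ratio scaling (-0.0099) and without 1 library (-0.033 to 0.039, with -0.012 and -0.0019 also below 0). Between lines they were MAP2K7 with median-ratio scaling (-0.014) and without 1 library (-0.045 to 0.088, with -0.042 also below 0), and MAP2K2 without 1 library (-0.15 to 0.030, with 0.021 also above 0). Among differences that did not reverse, knockdown over both lines moved without 1 library from -0.049 to between -0.099 and -0.0075 for MAPK3, and from -0.067 to between -0.10 and -0.037 for MAP2K4, and with the leading entry from 0.11 to 0.20 for MAPK14. The MAPK8 knockdown difference in A498 was -4.87 with accession matches alone and -0.19 to -0.0088 without 1 library. In 786-O it was 0.63 for the leading entry, 0.59 with accession matches alone and 0.12 to 0.21 without 1 library. Numbers of genes called by limma moved more, and rose within each line and for the interaction whichever library was left out. In A498 (18) they were 8 with a pseudocount of 1, 0 with no filter (1254 at an unadjusted p under 0.05), 2 without symbols under 200 bp, and 47 to 60 without 1 library. In 786-O (16) they were 5 with no filter, 0 without symbols under 200 bp (436 unadjusted) and 29 to 40 without 1 library. Over both lines (1) they were 1 to 3 without 1 library. The interaction (15) gave 6 with a pseudocount of 0.01, 27 with no filter, 0 without symbols under 200 bp (211 unadjusted) and 28 to 38 without 1 library. Between lines (8271) they were 7410 to 8213 without 1 library. A library left alone in its group was assumed to vary like the others. Libraries with the same replicate number did not deviate together (r = -0.00407 in A498, 0.00631 in 786-O). The knockdown libraries of a line also differ in siRNA, so these values cannot tell whether libraries with the same number were handled together. With the replicate block 0 genes were called in A498 (796 unadjusted), 4 in 786-O, 1 over both lines, 10 for the interaction and 8306 between lines. The cause of these changes was not tested. Accession matches alone and the exclusion of short symbols were chosen after seeing the data.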

Other observations

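AMN1, the other symbol that was lost in A498 only when sums were restricted to accessions in the current table, behaved like MAPK8. Its entry NM_001113402 stood at 2.27 FPKM in both A498 NTC libraries and at 0.000134 and 0.000187 with siRNA #1 and siRNA #2, while NR_004854, over the same span, stood at 0.000201 and 0.000197 and then at 2.22 and 1.94. The sum was 2.27 FPKM in both A498 NTC libraries, and 2.22 and 1.94 with the siRNAs. In 786-O, NR_004854 led in the NTC libraries (1.75 and 1.71 FPKM) and with siRNA #1 (1.78), and NM_001113402 led with siRNA #2 (1.05 against 0.797). AMN1 was named after its values were seen.

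The RefSeq entry of MAP3K14, a kinase of NF-kB signalling, differed widely between the A498 NTC libraries. It stood at 1.23 and 8.84 FPKM there, and at 8.09 and 8.73 with siRNA #1 and siRNA #2. A further entry over the same span, ENSG00000006062.9, stood at 40.3 and 29.2 FPKM in the A498 NTC libraries and at 30.8 and 28.8 with the siRNAs. In 786-O the RefSeq entry was at 5.65 and 6.91 FPKM in the NTC libraries, where its estimate was marked FAIL, and at 2.04 and 1.46 with the siRNAs. The further entry was at 22.1 and 23.1 FPKM in the 786-O NTC libraries and at 26.9 and 22.1 with the siRNAs. The fitted MAP3K14 values hold only the RefSeq entry, so a difference over both entries was not tested.

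Some member genes overlap other entries. ENSG00000268149.1, within the span of MAP2K7, stood at 2.68 and 2.88 FPKM in the A498 NTC libraries, 0.651 and 1.69 with the siRNAs, 2.28 and 2.12 in the 786-O NTC libraries, and 1.23e-05 and 1.68 with the siRNAs. ENSG00000266297.1, within MAP2K4, was at 0 in 7 libraries and at 6.97 FPKM in the second 786-O NTC library. SNAPC5, which overlaps MAP2K1, stood at 18.02 to 22.3 FPKM.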
